A study of Homo sapiens with 9 samples.

Results

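The genes described here are 32 genes of cholesterol and fatty acid synthesis, out of 21832 genes tested, in A2780 human ovarian carcinoma cells exposed to the drug DIG-MSK. They were taken as the gene probes whose transcript accession on the array belongs to 1 of these 32 genes under its current symbol, a rule that uses no measured value, although the list itself was drawn up with earlier results of these data known. There were 39 such probes, 38 of which passed the filter on dim probes, and all 32 genes could be tested. By role, 6 genes belong to the mevalonate pathway, 11 to the steps from squalene to cholesterol, 6 to the sensing of sterols and 9 to the making of fatty acids. DIG-MSK is a derivative of mithramycin A, an antibiotic that lies in the minor groove at C/G-rich stretches of DNA. The 3 groups were A2780 cells left untreated, cells given 8 nM DIG-MSK for 24 h and cells given 80 nM DIG-MSK for 24 h. No time is stated for the untreated cells. Each group had 3 RNA preparations from independent cultures and 1 single-dye array for each preparation. All groups are the same established line, so the comparisons carry no information on other ovarian carcinoma cells.

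Cholesterol is built from acetyl-CoA. The mevalonate pathway turns it into farnesyl pyrophosphate, which is joined head to head into squalene, folded into a sterol ring and trimmed by a chain of reductases, demethylases and isomerases. Genes of this route are switched on together by the SREBP transcription factors, which SREBF1 and SREBF2 encode. The SREBP precursors sit in the endoplasmic reticulum with their escort SCAP; when sterols are plentiful the INSIG proteins hold the complex there, and when sterols run low it moves to the Golgi apparatus, where proteases release the active factor. SREBP-driven promoters often bind Sp1 and NF-Y beside the SREBP itself. Tumour cells use both routes to make membrane lipid and protein anchors.

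The cells were checked against markers of epithelial carcinoma: EPCAM, KRT8, KRT18 and KRT19 were well above background on all 3 untreated arrays, PAX8 on 1 of the 3, and WT1, MUC16 and CDH1 on none. Of markers of other cells, 4 of 5 for fibroblasts, 2 of 4 for leukocytes and 1 of 3 for endothelium were well above background on all untreated arrays, and their part in the results was not tested. None of 3 adipocyte markers was above background on all arrays of any group. Between 24814 and 27151 gene probes per array were well above background, and replicate arrays of a group correlated between 0.989 and 0.996. The untreated and 8 nM arrays lay on slide 1 and were read in scan 1, while the 80 nM arrays lay on slide 2 and in scan 2, so that an effect of 80 nM and an effect of slide or scan cannot be told apart in any 80 nM result given here. Levels are log2 intensities relative to the 75th percentile of the same array, which is set to 0. Probes differ in how strongly they bind, so a level of 1 gene is not set against that of another. A gene is said to have risen or fallen where its adjusted p in limma was under 0.05 over all genes tested. The rule of the study (at least 1.5-fold or at most 0.67-fold, unadjusted p under 0.05) is counted beside it.

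At 80 nM most of the cholesterol genes were up-regulated. By the adjusted test, 17 of the 32 genes rose (53.1%) and 9 fell (28.1%), where 33.3% of all genes tested rose and 25.7% fell. The 17 include SC5D, which passed the filter on dim probes only through the 80 nM arrays. The share that fell was near that of all genes. By the rule of the study 11 genes were higher (34.4%) and 3 were lower (9.38%), against 18.8% and 16.3% of all genes. The median log2 change of the 32 genes was 0.32, and that of all genes was 0.08. The 17 enzymes from acetyl-CoA to cholesterol held most of the rise, with 11 higher, 3 lower and a median of 0.47. By the rule of the study 6 of these 17 were higher (35.3%) and 0 were lower. Of the 6 sensing genes 3 rose and 2 fell, and of the 9 fatty acid genes 3 rose and 4 fell. SREBF1 is counted as fallen, and as lower by the rule of the study, on its brighter probe, while its other probe rose. The plot of the change of each gene at both concentrations shows the estimates with their intervals.

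**Figure D1:**
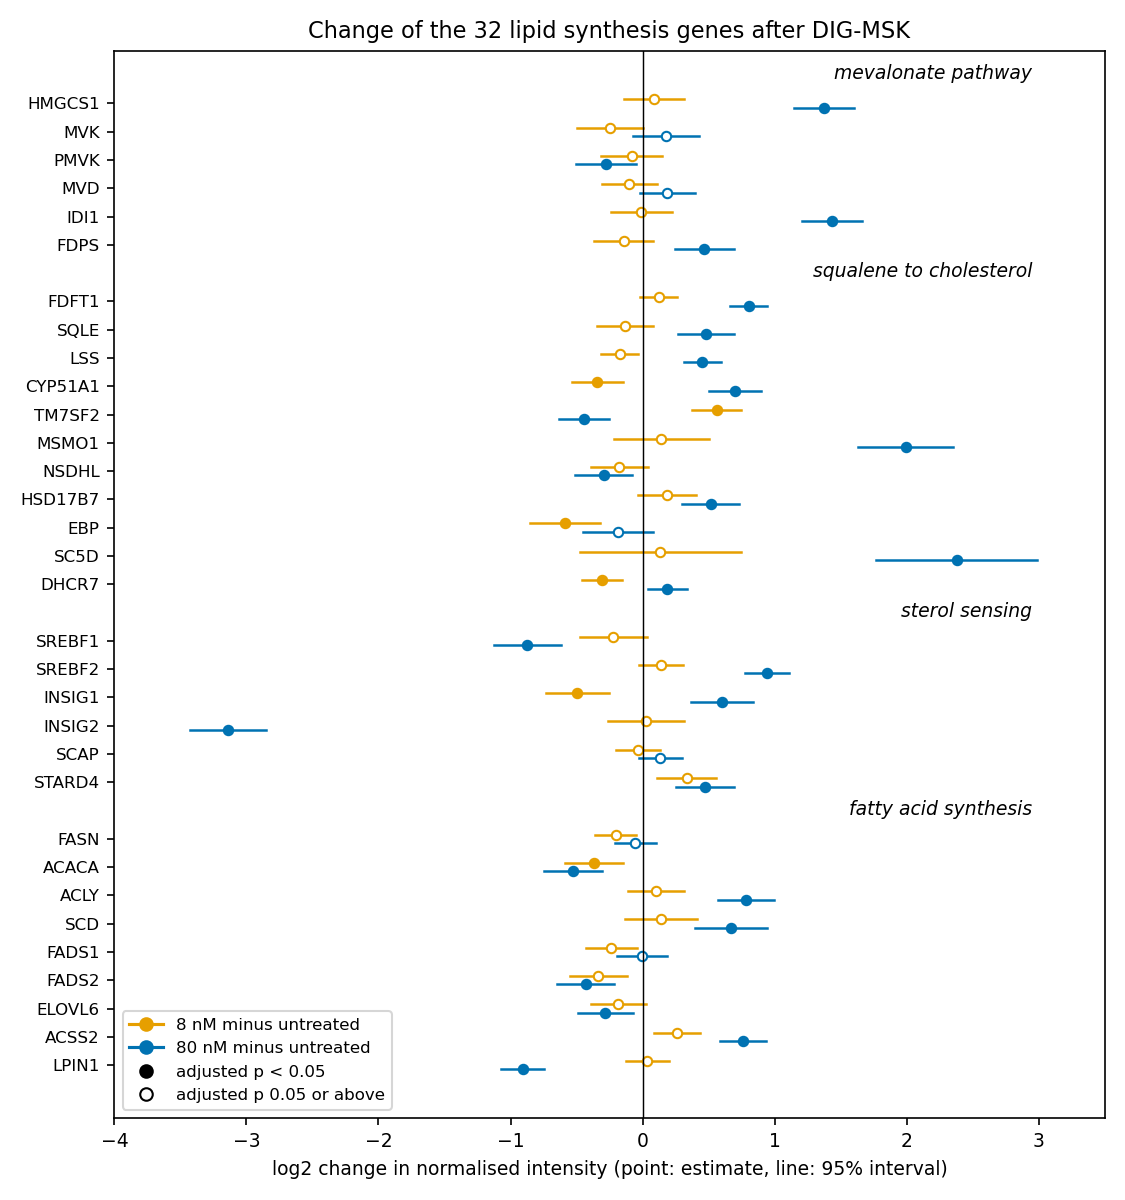
Log2 change in normalised intensity of each of the 32 genes (horizontal axis) after 8 nM (orange) or 80 nM DIG-MSK (blue) against untreated cells, as the limma estimate (point) with its 95% interval (line), grouped by role; filled points have an adjusted p under 0.05. INSIG2 stands farthest to the left (-3.14 at 80 nM) and MSMO1 and SC5D farthest to the right, and the SC5D point is an estimate against arrays on which its probe was not well above background.

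The size of these shifts depends on what is held constant between arrays. Scaling to the 10 spike-in probes, RNAs added in known amount, in place of the 75th percentile lowered the 80 nM change of every gene by 0.28 on the log2 scale. The spike-in offset itself had an SD of 0.22 among the 3 untreated arrays and of 0.05 among the 3 80 nM arrays. Among the 3 8 nM arrays, which have no part in that change, it was 0.36. Under that scaling 5 genes rose and 7 fell by the adjusted test, and 5 were higher and 6 lower by the rule of the study. Of all genes 8.32% rose and 23.2% fell under it by the adjusted test, and 10.2% were higher and 26.2% lower by the rule of the study, so the numbers that fell are near or under the share of all genes. HMGCS1, IDI1, MSMO1 and SREBF2 were among the 5 that still rose. The other was SC5D, which passed the filter on dim probes only through the 80 nM arrays, so its call is no support. The median of the 32 genes was then 0.04, and that of all genes -0.20. The signs of MVK, MVD, DHCR7 and SCAP at 80 nM turned under it, and DHCR7 was the only gene among these 4 that had passed the test.

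At 8 nM few of the genes moved. TM7SF2 rose and CYP51A1, EBP, DHCR7, INSIG1 and ACACA fell by the adjusted test, which is 1 of 32 genes higher (3.12%) and 5 lower (15.6%), against 7.91% and 5.72% of all genes. EBP was the only gene past the rule of the study, as 0 genes were higher and 1 was lower, where 4.25% and 2.84% of all genes were. The median log2 change was -0.09, and that of all genes was -0.06. Deviations of untreated and 8 nM arrays of the same replicate number correlated weakly (0.101 to 0.163), and what the numbers mark is not stated. With the number as a block and only these 6 arrays in the fit TM7SF2 was still called (adjusted p = 0.0496). None of the 5 that fell was called in that fit (adjusted p from 0.0727 to 0.167). With spike-in scaling none of the 6 genes was called at 8 nM (adjusted p from 0.357 to 0.889). The number of genes that fell was 1 without untreated replicate 1 or 2, 2 without untreated replicate 3 or 8 nM replicate 3, 3 without 8 nM replicate 1 or any 1 of the 80 nM arrays, and 10 without 8 nM replicate 2. Between the concentrations, 20 genes were higher (62.5%) and 4 lower (12.5%) at 80 nM than at 8 nM, against 34.6% and 22.9% of all genes, with a median difference of 0.41 (0.12 over all genes).

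Because DIG-MSK binds C/G-rich DNA, the RefSeq promoter windows of the genes (250 bases before and 50 after each start, GRCh38.p14) were searched on both strands for the GC box GGGCGG bound by Sp1, for the CCAAT box bound by NF-Y and for the sterol element TCACNCCAC bound by SREBP; matches of different motifs were counted whether or not they overlapped. The table holds 42 windows of 29 of the genes, with no entry for FDFT1, SQLE and FASN, and 35116 windows in all. A GC box lay in 37 of the 42 windows (88.1%) and in 45% of all windows, and a CCAAT box in 25 (59.5%) and in 34.6% of all. The 35116 windows were not limited to the genes tested here, so the share among genes expressed in these cells was not measured. These windows were also richer in G and C, with a median of 67.8% against 58.7% over all windows, so base composition differs together with the GC box. The sterol element lay in the SREBF2 window alone among them (2.38%) and in 1.13% of all windows. Of the genes with a window, all 15 that rose at 80 nM held a GC box in at least 1 window and 14 held a CCAAT box. A gene counts here if any of its windows holds the motif. The shares of all windows are per window, and no share per gene over all genes was measured to set beside these counts. SC5D, which passed the filter on dim probes only through the 80 nM arrays, is among the 15. Among the 9 that fell 8 held a GC box and 4 a CCAAT box, and among the other 5 the numbers were 5 and 3. The 9 include SREBF1, whose probes disagreed in direction. A match is a run of letters in the sequence and not a measured binding site.

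The 250 bases before the start are shown for the pairs of genes with the highest and the lowest fitted change at 80 nM, SC5D and MSMO1, then INSIG2 and LPIN1, and for SREBF2, which was added after its values were seen because it holds the sterol element. SC5D has only a bound on its rise, below the change of MSMO1, so its rank is not measured. Each runs 5′ to 3′ on the plus strand, and capitals mark GC boxes, CCAAT boxes and the sterol element on either strand. Where the table lists several starts (2 for SC5D and INSIG2, 3 for LPIN1) the window listed first is shown. SC5D lies at chr11:121292521-121292770, MSMO1 at chr4:165327419-165327668, INSIG2 at chr2:118088221-118088470, LPIN1 at chr2:11746382-11746631 and SREBF2 at chr22:41832855-41833104.
SC5D: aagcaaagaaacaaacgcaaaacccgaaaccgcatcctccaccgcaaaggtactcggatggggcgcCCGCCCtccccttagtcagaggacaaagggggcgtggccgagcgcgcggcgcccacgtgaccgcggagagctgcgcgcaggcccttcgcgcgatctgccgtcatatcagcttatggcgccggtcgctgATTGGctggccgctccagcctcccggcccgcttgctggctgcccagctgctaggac
MSMO1: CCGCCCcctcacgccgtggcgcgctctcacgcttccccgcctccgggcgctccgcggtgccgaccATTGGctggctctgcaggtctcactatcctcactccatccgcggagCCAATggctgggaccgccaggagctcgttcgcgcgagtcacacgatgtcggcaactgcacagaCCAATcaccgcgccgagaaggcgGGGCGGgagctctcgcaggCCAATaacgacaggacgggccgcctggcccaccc
INSIG2: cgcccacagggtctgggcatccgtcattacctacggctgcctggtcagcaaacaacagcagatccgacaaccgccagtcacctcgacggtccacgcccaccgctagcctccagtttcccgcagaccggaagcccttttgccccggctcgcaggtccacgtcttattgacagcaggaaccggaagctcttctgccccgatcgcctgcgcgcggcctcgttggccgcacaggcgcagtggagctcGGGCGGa
LPIN1: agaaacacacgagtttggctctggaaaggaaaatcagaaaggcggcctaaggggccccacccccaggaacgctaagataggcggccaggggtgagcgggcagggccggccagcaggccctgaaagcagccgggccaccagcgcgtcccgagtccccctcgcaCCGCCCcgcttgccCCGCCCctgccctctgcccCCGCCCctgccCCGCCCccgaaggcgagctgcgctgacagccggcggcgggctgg
SREBF2: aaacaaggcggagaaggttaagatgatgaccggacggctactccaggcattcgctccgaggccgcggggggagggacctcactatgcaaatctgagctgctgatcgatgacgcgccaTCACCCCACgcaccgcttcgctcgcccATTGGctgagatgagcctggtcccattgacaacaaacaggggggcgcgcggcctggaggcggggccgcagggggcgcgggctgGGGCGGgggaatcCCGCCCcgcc
The MSMO1 window holds 4 CCAAT boxes and 2 GC boxes, and that of SC5D 1 of each. The windows shown for INSIG2 and LPIN1 hold no CCAAT box, with 1 GC box in INSIG2 and 4 in LPIN1. The SREBF2 window holds its sterol element 133 bases before the start, beside 1 CCAAT box and 2 GC boxes.

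Of the 6 mevalonate pathway genes, HMGCS1, IDI1 and FDPS rose at 80 nM. HMGCS1 (NM_002130) encodes the synthase that condenses acetyl-CoA and acetoacetyl-CoA. Its log2 level was 0.10, 0.20 and -0.08 on the untreated arrays, 0.15, 0.27 and 0.07 at 8 nM, and 1.53, 1.33 and 1.48 at 80 nM. All 80 nM arrays lay above all others, while the 8 nM and untreated arrays overlapped. It rose by 1.37 ± 0.10 on the log2 scale (SE, 3 arrays per group) at 80 nM, or 2.59-fold (adjusted p = 1.03e-05). IDI1 (NM_004508) encodes the isomerase that makes the reactive isoprene unit. Its levels were 1.18, 1.10 and 0.92 untreated, 1.18, 0.89 and 1.10 at 8 nM, and 2.51, 2.44 and 2.56 at 80 nM. The 80 nM arrays again stood clear of the others, with a rise of 1.44 ± 0.10, or 2.71-fold (adjusted p = 8.60e-06). FDPS, the synthase of farnesyl pyrophosphate, rose by 0.47 ± 0.10 (adjusted p = 0.00363), a call lost with spike-in scaling (0.19, adjusted p = 0.521).

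Of the kinases and the decarboxylase between them, none passed the test as higher at 80 nM than in untreated cells. PMVK, phosphomevalonate kinase, fell by 0.28 ± 0.10 on the log2 scale (adjusted p = 0.0411), a call that was lost on leaving out any 1 untreated array, any 1 80 nM array or 8 nM replicate 1, where the change lay between -0.31 and -0.24. MVK, mevalonate kinase, had a change of 0.18 (95% interval -0.07 to 0.43), and MVD, the decarboxylase, one of 0.19 (-0.02 to 0.40), and neither passed the test against untreated cells. Against 8 nM cells both were higher, MVK by 0.42 and MVD by 0.29 (adjusted p = 0.00997 and 0.0251). The MVD difference did not pass without 8 nM replicate 3 or without 80 nM replicate 2 or 3, and it turned to -0.068 with spike-in scaling. With that scaling the MVK difference was 0.07 and did not pass (adjusted p = 0.822). At 8 nM 0 of the 6 genes passed limma's test against untreated cells, and 0 had an unadjusted p under 0.05; their changes ran from -0.25 for MVK to 0.09 for HMGCS1.

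**Figure D2:**
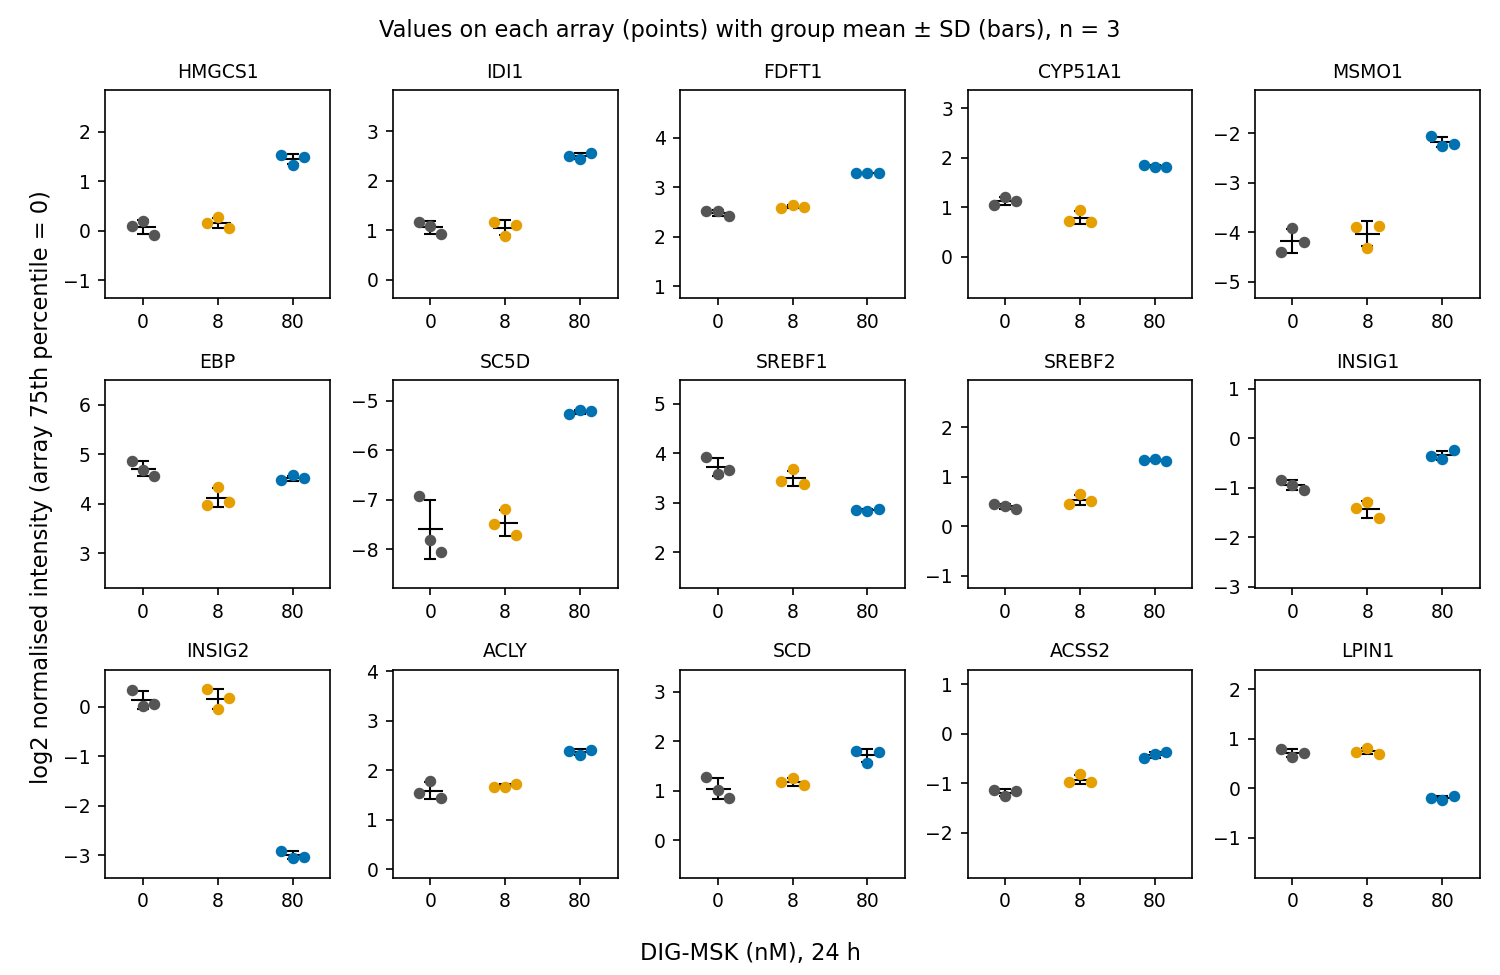
Log2 normalised intensity (vertical axis, a span of 4.2 log2 units in every panel) of the 15 genes past both tests at either concentration, on each array (points) with the group mean and SD (bars, n = 3), against the DIG-MSK concentration (0, 8 and 80 nM). The 80 nM arrays stand apart from the other 6 in all panels except that of EBP. The SC5D probe was not well above background on those 6 arrays.

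Of the 11 genes from squalene to cholesterol 8 rose at 80 nM and 2 fell. The 8 include SC5D, for which only a bound can be given. FDFT1 (NM_004462), squalene synthase, draws farnesyl pyrophosphate into sterols. It measured 2.52, 2.52 and 2.42 untreated, 2.57, 2.64 and 2.61 at 8 nM and 3.29, 3.29 and 3.28 at 80 nM. Its 3 groups did not overlap, and it rose by 0.80 ± 0.06 at 80 nM, or 1.75-fold (adjusted p = 1.46e-05), while the 8 nM change of 0.12 did not pass. The next enzymes, squalene epoxidase (SQLE) and lanosterol synthase (LSS), rose by 0.48 ± 0.09 and 0.45 ± 0.06, each under 1.5-fold. A second LSS probe gave 0.60 at 80 nM and 0.56 at 8 nM (adjusted p = 0.00957), where the brighter probe gave -0.17 and did not pass. CYP51A1 (NM_000786) encodes lanosterol demethylase. It measured 1.05, 1.21 and 1.13 untreated, 0.73, 0.95 and 0.69 at 8 nM, and 1.86, 1.82 and 1.82 at 80 nM. Its 8 nM arrays lay below and its 80 nM arrays above the untreated ones, with a fall of 0.34 ± 0.09 at 8 nM (adjusted p = 0.0334) and a rise of 0.70 ± 0.09 at 80 nM (adjusted p = 1.94e-04). The 8 nM call on CYP51A1 was lost on leaving out any 1 array other than 8 nM replicate 2 and with the replicate block on all 9 arrays (adjusted p = 0.0534).

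Among the enzymes that trim the sterol ring, MSMO1 and SC5D had the largest estimates. MSMO1 (NM_006745) encodes the methyl sterol oxidase that starts the removal of the C4 methyl groups. It measured -4.39, -3.91 and -4.20 untreated, -3.90, -4.32 and -3.86 at 8 nM and -2.06, -2.26 and -2.22 at 80 nM. The 80 nM arrays lay well clear of the others, with a rise of 1.99 ± 0.16, or 3.98-fold (adjusted p = 1.71e-05). The probe is dim, and the rise was 1.22 with normexp background correction and 1.45 in the log2 values the authors deposited. SC5D (NM_001024956), sterol desaturase, measured -6.92, -7.81 and -8.05 untreated, -7.49, -7.19 and -7.71 at 8 nM and -5.26, -5.18 and -5.21 at 80 nM. Its probe was well above background on the 80 nM arrays and on none of the other 6, so only a bound can be given. Against the lowest signal counted as well above background, SC5D was at least 1.83-fold higher at 80 nM than in untreated cells and at least 1.62-fold higher than at 8 nM. It passed the filter on dim probes only through the 80 nM arrays, where it is high, so its test is no support for the rise; with the filter on all arrays, which removes SC5D, 16 of 31 genes rose and 9 fell. HSD17B7, the reductase of the same demethylation step as MSMO1, rose by 0.52 ± 0.10; 2 further probes of it gave 0.36 (adjusted p = 0.00951) and 0.30 (adjusted p = 0.0992), and its near-identical pseudogene could share signal with it. NSDHL, the dehydrogenase of that step, fell by 0.30 ± 0.09 (adjusted p = 0.0252), a call lost without untreated replicate 1 or 2 or any 1 of the 80 nM arrays.

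TM7SF2, EBP and DHCR7 act at other steps in the trimming of the ring. TM7SF2, a sterol C14 reductase, measured -0.55, -0.63 and -0.49 untreated, 0.05, -0.14 and 0.09 at 8 nM and -0.98, -0.98 and -1.05 at 80 nM. It rose by 0.56 ± 0.08 at 8 nM (adjusted p = 0.00379) and fell by 0.44 ± 0.08 at 80 nM (adjusted p = 0.00179), with no overlap between the 3 groups. EBP (NM_006579), the sterol isomerase, measured 4.86, 4.67 and 4.57 untreated, 3.98, 4.33 and 4.03 at 8 nM and 4.47, 4.57 and 4.51 at 80 nM. Its 8 nM arrays lay below all untreated ones, a fall of 0.59 ± 0.11 to 0.666 of the untreated intensity (adjusted p = 0.0134). That put EBP just inside the limit of 0.67, and it passed the limit no longer without untreated replicate 1 or without 8 nM replicate 1 or 3. At 80 nM its arrays overlapped the untreated range (change -0.18, 95% interval -0.45 to 0.08). DHCR7, which reduces the last double bond of the precursor ring, fell by 0.31 ± 0.07 at 8 nM (adjusted p = 0.0187) and rose by 0.19 ± 0.07 at 80 nM (adjusted p = 0.0362). The 8 nM fall was lost on leaving out any 1 untreated array or 8 nM replicate 3, and the 80 nM rise on leaving out any 1 untreated array or 80 nM replicate 2 or 3.

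The sensing genes held the largest fall of the 32. INSIG2 (NM_016133), which retains SCAP in the endoplasmic reticulum, measured 0.34, 0.02 and 0.05 untreated, 0.36, -0.05 and 0.17 at 8 nM and -2.91, -3.06 and -3.03 at 80 nM. Untreated and 8 nM arrays overlapped and the 80 nM arrays lay far below both. It fell by 3.14 ± 0.13 on the log2 scale, to 0.114 of the untreated intensity (adjusted p = 4.11e-07), and a second probe fell by 2.58 (adjusted p = 6.51e-07). INSIG1 (NM_005542), its paralogue and itself a target of SREBP, measured -0.84, -0.93 and -1.04 untreated, -1.40, -1.28 and -1.61 at 8 nM and -0.36, -0.41 and -0.24 at 80 nM. Its 3 groups did not overlap. It fell by 0.49 ± 0.10 at 8 nM (adjusted p = 0.0171), a call lost without untreated replicate 1 or 2, and rose by 0.60 ± 0.10, or 1.52-fold, at 80 nM (adjusted p = 0.00126). The 2 INSIG genes thus moved in opposite directions at 80 nM under the main scaling. The INSIG1 rise was under 1.5-fold with normexp correction (0.52) and in the authors' log2 values (0.53). With spike-in scaling it did not pass (0.32, adjusted p = 0.256).

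Of the genes of the SREBP factors themselves, SREBF2 rose at 80 nM, and the probes of SREBF1 disagreed. SREBF2 (NM_004599), whose product mainly drives cholesterol genes, measured 0.45, 0.40 and 0.34 untreated, 0.45, 0.64 and 0.52 at 8 nM and 1.34, 1.35 and 1.32 at 80 nM. The 80 nM arrays lay above all others, a rise of 0.94 ± 0.07, or 1.92-fold (adjusted p = 1.51e-05). SREBF1 (NM_001005291), tied more to fatty acid genes, measured 3.92, 3.57 and 3.66 untreated, 3.43, 3.67 and 3.38 at 8 nM and 2.84, 2.82 and 2.86 at 80 nM. All 80 nM arrays lay below the others, and on this probe it fell by 0.87 ± 0.11, to 0.546 of the untreated intensity (adjusted p = 2.50e-04). A second SREBF1 probe, with a lower mean but well above background on all 9 arrays, rose by 0.44 (adjusted p = 0.0131), and the mean of both gave -0.22 (adjusted p = 0.0358), so the direction for SREBF1 depends on the probe. STARD4, a carrier of cholesterol between membranes, rose by 0.47 ± 0.10 at 80 nM (adjusted p = 0.00312). SCAP did not pass at either concentration, with changes of -0.03 at 8 nM and 0.14 at 80 nM.

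**Figure D3:**
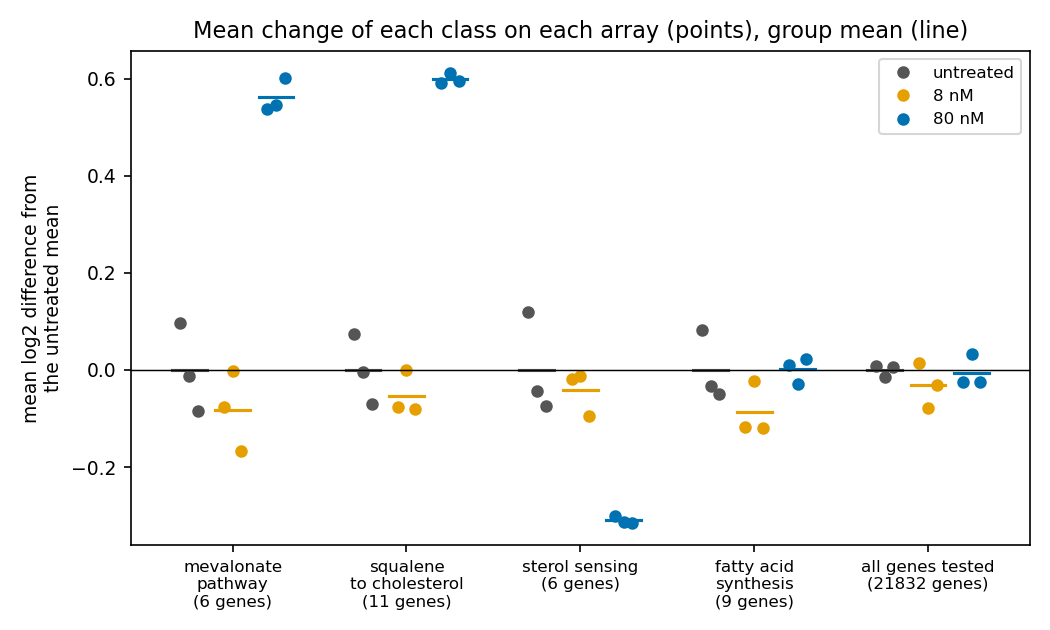
Mean log2 difference from the untreated mean (vertical axis) over the genes of each role and over all genes tested, on each array (points) with the group mean (line), by treatment. At 80 nM both sterol enzyme classes stand above all other arrays (0.54 to 0.60 for the mevalonate pathway and 0.59 to 0.61 for squalene to cholesterol). The latter mean includes SC5D at its fitted 2.38, where only a bound of at least 0.87 can be given. The median of that class on these arrays was 0.44 to 0.48. The sensing genes stand below (-0.32 to -0.30, a mean that INSIG2 enters with -3.14), and the fatty acid genes lie near 0.

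Among the 9 fatty acid genes ACLY, ACSS2 and SCD rose at 80 nM. ACLY (NM_001096) cleaves citrate to cytosolic acetyl-CoA. It measured 1.55, 1.77 and 1.44 untreated, 1.67, 1.66 and 1.73 at 8 nM and 2.39, 2.30 and 2.41 at 80 nM. Only the 80 nM arrays stood apart, with a rise of 0.78 ± 0.09, or 1.72-fold (adjusted p = 1.68e-04). ACSS2 (NM_018677) makes acetyl-CoA from acetate. It measured -1.14, -1.26 and -1.16 untreated, -0.98, -0.82 and -0.98 at 8 nM and -0.49, -0.42 and -0.36 at 80 nM. The groups did not overlap, and it rose by 0.76 ± 0.08, or 1.70-fold, at 80 nM (adjusted p = 6.42e-05), while the 8 nM change of 0.26 did not pass (adjusted p = 0.0581). SCD (NM_005063), the desaturase that makes oleate, measured 1.27, 1.01 and 0.85 untreated, 1.17, 1.27 and 1.11 at 8 nM and 1.79, 1.56 and 1.79 at 80 nM. Its 80 nM arrays lay above the rest, a rise of 0.67 ± 0.12, or 1.59-fold (adjusted p = 0.00155).

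None of the other 6 fatty acid genes passed the test as higher at 80 nM than in untreated cells. FASN, fatty acid synthase, had a change of -0.06 at 80 nM (95% interval -0.21 to 0.10) and one of -0.20 at 8 nM (adjusted p = 0.0869). ACACA, acetyl-CoA carboxylase, fell by 0.53 ± 0.10 at 80 nM (adjusted p = 0.00183) and by 0.37 ± 0.10 at 8 nM (adjusted p = 0.0407); a dimmer probe gave -0.25 (adjusted p = 0.0386) and 0.02. The 8 nM call on ACACA was lost on leaving out any 1 array other than 8 nM replicate 2. FADS2, a desaturase of polyunsaturated fatty acids, fell by 0.43 ± 0.09 at 80 nM (adjusted p = 0.00473), and its neighbour FADS1 had a change of -0.01. The elongase ELOVL6 fell by 0.28 ± 0.09 at 80 nM (adjusted p = 0.0263), a call lost without untreated replicate 1 or 3 or 80 nM replicate 2 or 3. LPIN1 (NM_145693), a phosphatidate phosphatase that commits fatty acids to glycerolipids, measured 0.80, 0.64 and 0.71 untreated, 0.73, 0.82 and 0.70 at 8 nM and -0.19, -0.23 and -0.16 at 80 nM. The 80 nM arrays lay below all others, a fall of 0.91 ± 0.07, to 0.533 of the untreated intensity (adjusted p = 1.59e-05).

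Neighbouring genes of lipid handling were taken from lists that hold none of the 32, and their counts at 80 nM stand against the 33.3% of all genes that rose and the 25.7% that fell. Of 11 other enzymes of sterol and isoprenoid synthesis tested, 6 rose (54.5%) and 0 fell by limma's adjusted test, and 0 were lower at an unadjusted p under 0.05 as well (median change 0.30). ERG28, a scaffold for the enzymes of sterol demethylation, rose by 1.53 ± 0.09, followed by NUS1 of dolichol synthesis (0.66), PDSS2 of ubiquinone synthesis (0.54) and GGPS1, the geranylgeranyl pyrophosphate synthase (0.52). Of 7 other genes of SREBP processing 4 rose (57.1%) and 1 fell (14.3%). RNF145 rose by 0.45, ERLIN2 by 0.41 and MBTPS1, the protease that makes the first cut in SREBP, by 0.29.

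Of 23 other fatty acid and glycerolipid enzymes tested 14 rose (60.9%) and 2 fell (8.7%), with a median change of 0.39. HACD1, a dehydratase of chain elongation, rose by 2.04 ± 0.09, and the elongases ELOVL3 and ELOVL1 by 1.81 ± 0.07 and 1.07 ± 0.12. ACSL5, which activates fatty acids, was not well above background on any 80 nM array and was at least 3.20-fold lower there than in untreated cells. Of 10 genes of sterol export, storage and lysosomal release tested 6 rose (60%) and 1 fell (10.0%). LIPA, the lysosomal acid lipase, rose by 1.53 ± 0.12, NPC1, which moves cholesterol out of lysosomes, by 0.85 ± 0.09 and OSBP by 0.61 ± 0.09. ABCG1, a sterol exporter, was not well above background at 80 nM and was at least 2.74-fold lower than in untreated cells. ABCG1 and ACSL5 passed the filter only through groups in which they are high, so no test is given for them, though both are in the counts of genes that fell. Of 14 genes of fatty acid oxidation 5 rose (35.7%) and 4 fell (28.6%), near the shares of all genes. ACADS (0.70) and HADHA (0.58) were higher and CPT1A (-0.47) and CPT2 (-0.42) lower, with a median of 0.20. Spike-in scaling shifts the 80 nM change of every gene by -0.28, which turned that median negative. The shift is nearly as large as the medians of the other sterol and isoprenoid enzymes (0.30) and SREBP processing genes (0.29). The medians of the fatty acid and glycerolipid enzymes (0.39) and of the sterol export list (0.54) exceed it. The counts of genes that rose or fell in the neighbouring lists were not repeated under that scaling.

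**Figure D4:**
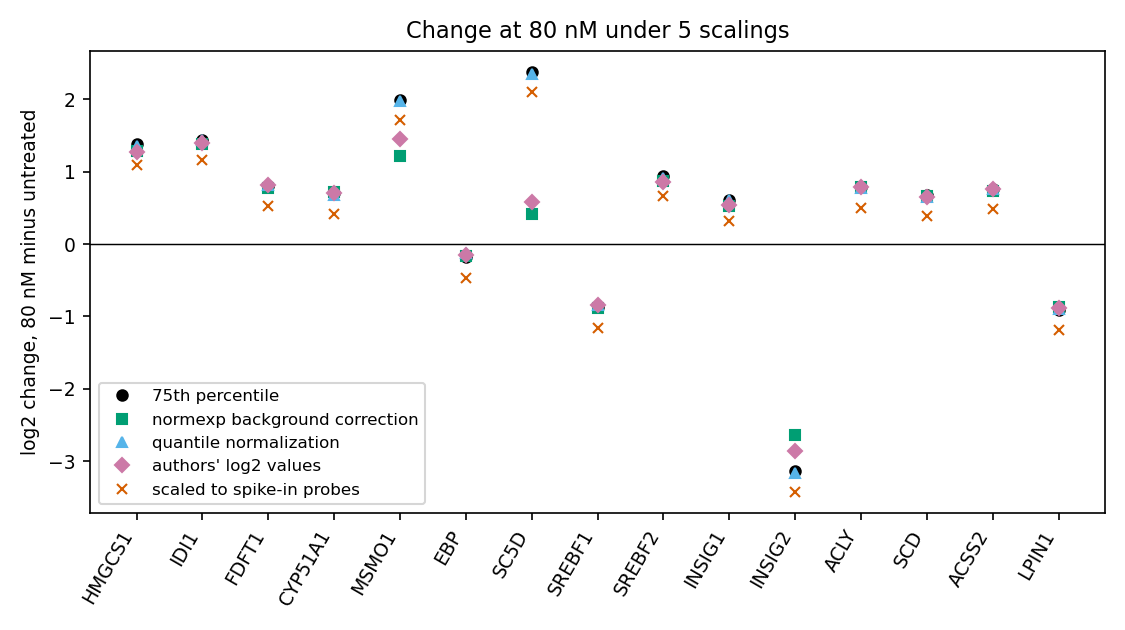
Log2 change at 80 nM against untreated cells (vertical axis) of the 15 genes shown by array, under the 75th percentile scaling (black) and 4 other treatments of the intensities. Spike-in scaling (crosses) lies 0.28 below the black points throughout, and MSMO1 and SC5D, whose probes are near background, are lower with normexp correction (1.22 and 0.42) and in the authors' log2 values (1.45 and 0.59).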

How the data were processed

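RNA from A2780 cells was measured on 9 single-colour Agilent arrays of 62976 spots each, 3 per group; groups and replicate numbers were taken from the labels of the samples. The authors subtracted background with Feature Extraction 10.7.3.1, per the file headers, and the deposited processed intensity is not scaled between arrays. A second deposited table gives log2 values of the authors for each probe; they followed the log2 median spot signal (correlations between 0.9986 and 0.9998) with a median of 6.60 to 6.61 on every array. The table is therefore log2, uncentred and normalized between arrays, and it served as an alternative only. The labels and the paper name different labelling kits, and the lowess step the paper names has no second channel here.

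Control spots (4259) and outlier spots were left out, log2 intensities were reduced by the 75th percentile of their array (831.7 to 1170 intensity units), spots were averaged per probe, and a probe stayed in when it was well above background throughout 1 group or more (all 3 arrays) (26457 of 42405). No spot of a gene probe was saturated (0). RefSeq genes of GRCh38.p14 gave current symbols to 25713 of the 26576 probes that carry a RefSeq accession. The probe with the highest mean stood for a gene. All 9 arrays were fitted with limma 3.58.1 in R 4.3.3 (lmFit, contrasts, eBayes), and p-values were adjusted by Benjamini-Hochberg across all 21832 genes; the procedure was tested on simulated data. The number of arrays limits the precision. Full values are given for genes that passed the rule of the study with an adjusted p under 0.05 at either concentration and whose treated arrays all lay on one side of the untreated ones, and for TM7SF2, which was added after its values were seen; of each neighbouring list at most the 4 largest changes at 80 nM are named, apart from 1 gene that is not reported here. A bound (at least N-fold) sets the bright group's mean against the higher of the dim probe's own value and the lowest signal well above background on each array.

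The genes and the lists were chosen with earlier results of these data known. Deviations of same-numbered untreated and 8 nM arrays from their group means correlated at 0.114, 0.101 and 0.163 over genes. The main fits treated all arrays as unpaired, and a block on the replicate number was run only as an alternative. The pairs with 80 nM arrays gave -0.124 to 0.016 and were not taken as pairs. What the replicate numbers mark is not stated, and differently numbered arrays were not compared, so these values cannot decide whether the arrays are paired. Alternatives were normexp correction (offset 50, on the median spot signal), quantile normalization, spike-in scaling, the log2 table, all probes whether dim or not, probes above background on every one of the 9 arrays, averaged probes per gene, only the groups compared, the replicate block, each array left out, and promoter windows without the 50 bases after the start.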

Additional observations from a re-analysis of the deposited data

Results flagged for a closer look

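Against the same untreated arrays, 4 of the 32 genes moved in opposite directions at 8 nM and at 80 nM, each past the adjusted test at both concentrations. The 80 nM arrays were then compared directly with the 8 nM arrays with limma (Benjamini-Hochberg adjustment). The 4 genes were chosen by these same changes, so the adjusted p-values of this comparison are no further support for them. CYP51A1 was higher at 80 nM than at 8 nM by 1.04 ± 0.09 on the log2 scale (SE, 3 arrays per group, adjusted p = 2.34e-05). INSIG1 was higher by 1.09 ± 0.10 (adjusted p = 5.15e-05) and DHCR7 by 0.50 ± 0.07 (adjusted p = 3.36e-04). TM7SF2 differed the other way, by -1.004 ± 0.08 (adjusted p = 2.17e-05). The 80 nM arrays lay on a slide of their own, so the slide and the concentration cannot be told apart in these 4 differences. The fall of CYP51A1, INSIG1 and DHCR7 at 8 nM did not pass with the replicate block on the untreated and 8 nM arrays. With spike-in scaling none of the 4 was called at 8 nM. The 80 nM rise of CYP51A1 (0.42, adjusted p = 0.157) and of INSIG1 (0.32, adjusted p = 0.256) did not pass under it either. The differences between the concentrations still passed for CYP51A1, INSIG1 and TM7SF2 (adjusted p from 9.7e-04 to 0.0289). For DHCR7 the 80 nM change also did not pass with the block on all 9 arrays (adjusted p = 0.0581), and with spike-in scaling it turned to -0.091, the sign of its 8 nM change, with a difference between the concentrations of 0.14 (adjusted p = 0.669).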

How the results depend on the processing

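By the rule of the study, the 0 genes higher and 1 lower at 8 nM became 1 and 0 with spike-in scaling, and 0 were lower with quantile normalization and in the authors' log2 values; leaving out each array in turn gave 0 to 1 in both directions. The 11 higher and 3 lower at 80 nM became 5 and 6 with spike-in scaling and were 9 to 12 and 3 to 3 with an array left out. Between 80 nM and 8 nM the 20 higher by adjusted p became 6 with spike-in scaling, the 4 lower became 7 with quantile normalization and 7 in the authors' log2 values, and leaving out an array gave 17 to 21 and 4 to 4. Spike-in scaling turned DHCR7 at 80 nM against untreated to -0.091, and MVD, HSD17B7 and FADS1 at 80 nM against 8 nM to -0.068, -0.024 and -0.13; it moves every gene of a comparison by 1 constant. By adjusted p at 8 nM, the 1 higher became 2 with quantile normalization and in the authors' log2 values, 3 with the filter on all arrays and 0 with spike-in scaling, and the 5 lower became 2 without a filter on dim probes and 0 with spike-in scaling or with only the groups compared. The median change at 80 nM was 0.19 with the filter on all arrays, which removes SC5D. With the replicate block on all 9 arrays the counts by the rule of the study were 0 and 1 at 8 nM and 11 and 3 at 80 nM, and by adjusted p 1 and 3 at 8 nM. With the block on the untreated and 8 nM arrays alone, which was chosen after seeing the data, they were 0 and 1 by the rule of the study and 1 and 0 by adjusted p. Promoter windows without the 50 bases after the start held the GC box in 37, the CCAAT box in 24 and the sterol element in 1 of the windows. Probes near background (MSMO1, SC5D) depend most on background correction.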
